A study of Homo sapiens with 20 samples.

Results

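The 5 genes of the Rel/NF-κB family, RELA, RELB, REL, NFKB1 and NFKB2, were followed in RNA-seq data of U2-OS cells, a human osteosarcoma line. They were found by symbol in the deposited table of 20314 genes, where each has 1 row, and all 5 passed the filter on low counts that left 14992 genes for testing. The series holds 20 libraries in 4 groups of 5. These are untreated cells, cells taken 90 minutes or 7 days after a 20 Gy dose of ionizing radiation (IR), and cells without IR in which NFKBIA was knocked down by shRNA. The design asks how NF-κB responds within hours and days of DNA damage, and whether loss of IκBα, the product of NFKBIA, is enough to activate it.

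All cells were grown in the same serum-containing medium. The study describes the NFKBIA knockdown of the sequenced cells as induced by doxycycline (Dox) from a lentiviral shRNA vector, with clonal selection under puromycin, and names cells with a scrambled shRNA and Dox as controls. The labels do not say whether the untreated and irradiated cells carried a vector or received Dox, and none of the 20 libraries is labelled as a scrambled shRNA control. Thus, in the comparison of the knockdown with untreated cells, the shRNA cannot be told apart from vector, selection, Dox and sequencing lane. The study describes the replicates as biological, but the labels name no separate cultures, so that p values measure the spread between these libraries.

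The Rel/NF-κB proteins bind DNA as dimers at κB sites. RELA (p65), RELB and REL (c-Rel) carry transactivation domains, whereas NFKB1 and NFKB2 encode the precursors p105 and p100, which are processed to the DNA-binding subunits p50 and p52. In the canonical pathway, IκB proteins hold dimers such as RelA-p50 in the cytoplasm until the IκB kinases mark them for degradation, while in the non-canonical pathway the processing of p100 releases RelB-p52. Much of this control acts on proteins and their location, which counts of transcripts do not measure.

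Several genes of the family are known targets of NF-κB themselves, and the promoters were therefore searched for the κB consensus, a motif of 10 bases, on both strands. RefSeq windows (GRCh38.p14) were available for RELA, REL, NFKB1 and NFKB2. RELB had no entry. In the 250 bases before the transcription start, the consensus was found in the window of REL, in 1 of 2 windows of NFKB1, in 2 of 3 windows of NFKB2 and in neither of the 2 windows of RELA. Across the genome, 3498 of 35116 such windows (9.96%) held it. The 4 windows with a match are shown 5′ to 3′ because each holds the κB consensus in the promoter of a subunit gene, with the matches in capitals.
REL, chr2:60881324-60881573, plus strand: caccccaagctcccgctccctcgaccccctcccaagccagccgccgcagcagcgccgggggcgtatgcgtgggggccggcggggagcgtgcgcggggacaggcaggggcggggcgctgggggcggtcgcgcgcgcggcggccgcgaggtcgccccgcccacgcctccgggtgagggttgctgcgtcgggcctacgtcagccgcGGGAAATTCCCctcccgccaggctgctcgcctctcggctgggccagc
NFKB1, chr4:102501109-102501358, plus strand: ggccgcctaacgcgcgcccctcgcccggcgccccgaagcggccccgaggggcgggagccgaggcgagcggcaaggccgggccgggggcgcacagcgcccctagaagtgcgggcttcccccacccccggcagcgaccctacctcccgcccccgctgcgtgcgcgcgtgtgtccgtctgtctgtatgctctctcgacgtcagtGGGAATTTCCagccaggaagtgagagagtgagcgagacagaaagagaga
NFKB2, the second start, chr10:102394328-102394577, plus strand: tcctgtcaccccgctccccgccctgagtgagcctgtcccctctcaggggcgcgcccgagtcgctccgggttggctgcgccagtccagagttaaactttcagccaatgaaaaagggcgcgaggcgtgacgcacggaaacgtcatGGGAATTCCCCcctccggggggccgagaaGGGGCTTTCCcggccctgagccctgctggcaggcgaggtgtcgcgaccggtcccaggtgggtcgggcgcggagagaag
NFKB2, the third start, chr10:102395455-102395704, plus strand: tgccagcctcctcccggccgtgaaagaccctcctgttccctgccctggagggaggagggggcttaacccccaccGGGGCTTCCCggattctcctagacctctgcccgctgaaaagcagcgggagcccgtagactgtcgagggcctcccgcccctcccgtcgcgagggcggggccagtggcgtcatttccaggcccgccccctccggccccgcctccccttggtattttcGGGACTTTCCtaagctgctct
In REL, 2 overlapping matches, 1 on each strand, begin 47 and 46 bases before the start. That of NFKB1 begins 49 bases before the start. The second start of NFKB2 has matches that begin 107, 106 and 78 bases before it, of which the first 2 overlap, and the third start has matches at 176 and 21 bases. These are matches of letters, and no binding was measured in these libraries.

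The libraries held between 22535659 and 40390961 counts, and CPM, counts scaled to library size with TMM factors, is used below. Levels of the cell type markers are CPM by library size alone, without these factors. The lowest total was that of untreated replicate 5, which also stood apart from its group. By Dixon's criterion for 5 samples, 12.7% of the 14992 tested genes had their outlying value of the group in this library, compared with 0.107% to 3.62% in each of the other 19. In untreated replicate 5, 2478 genes (16.5%) lay more than 0.5 above, and 2255 genes (15.0%) more than 0.5 below, the mean of the other 4 untreated libraries on the log2 scale. RELA, REL and RELB were among them, NFKB1 and NFKB2 were not, and each comparison below is also given without this library. It was also the single untreated library with the lane tag of the first 3 libraries at 90 minutes, since the lane tags of the labels follow the groups closely. No library at 7 days or of the knockdown shares a lane tag with an untreated one. Lane thus cannot be told apart from the differences of these groups from untreated cells. As the check of the labels, NFKBIA had 13.0, 11.2, 12.1, 12.0 and 12.4 CPM in the knockdown and 28.6, 23.5, 27.4, 35.0 and 42.0 CPM in untreated cells, a log2 fold change of −1.36 ± 0.11 (SE, edgeR adjusted p = 4.87e-09). The osteoblast lineage markers RUNX2 (at least 67.2 CPM), COL1A1 (at least 588 CPM) and SPARC (at least 1210 CPM) were well detected, whereas SP7 did not exceed 0.0879 CPM, IBSP had 0 counts in 18 libraries and COL1A2 did not exceed 0.589 CPM.

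**Figure D1:**
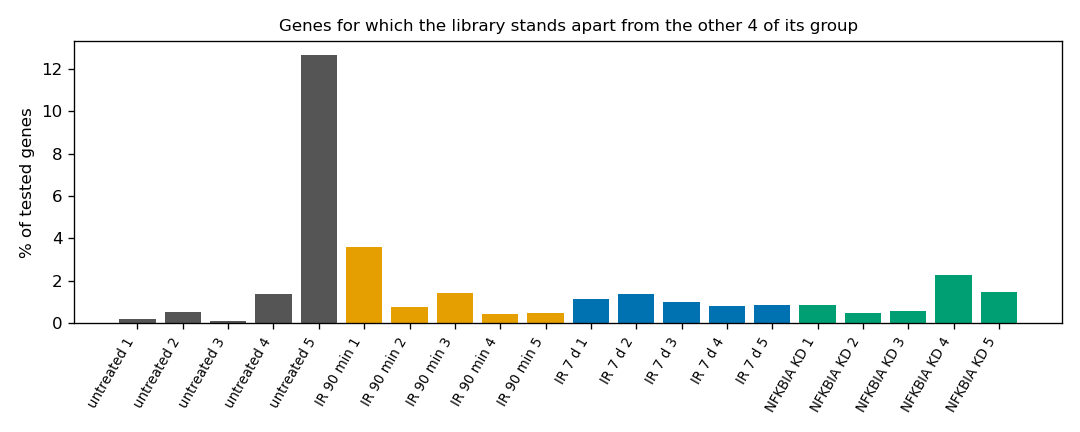
Share of the 14992 tested genes, in percent, for which each of the 20 libraries lies apart from the other 4 of its group by Dixon's criterion; bars are coloured by group. Untreated replicate 5 reaches 12.7%, and no other library exceeds 3.62%.

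RELA, the subunit best known for the canonical response, was even outside this library. Its level was 117, 116, 121 and 115 CPM in untreated replicates 1 to 4 and 216 CPM in replicate 5. At 90 minutes after IR it was 115, 116, 114, 118 and 115 CPM, at 7 days 123, 122, 123, 122 and 118 CPM, and in the knockdown 120, 122, 120, 115 and 117 CPM. Thus 19 libraries lay between 114 and 123 CPM, and the value of untreated replicate 5 was far above them all. It rests on 4535 reads, and its cause was not tested. The coefficient of variation was 1.43% at 90 minutes, 1.65% at 7 days and 2.37% in the knockdown, compared with 32.3% in the untreated group and 2.39% there without replicate 5. RELA was 0.88 higher in untreated replicate 5 than in the mean of the other 4 on the log2 scale, which was rank 890 of 14992 genes in this direction. REL was 1.56 higher there (rank 133) and RELB 0.84 lower (−0.84). In the GENCODE 29 annotation, exons of an antisense lincRNA, AP001362.2, which has no row in the table, overlap those of RELA, and the setting for strand in the counting is not given in the sources used here. For REL, exons of AC010733.2, a noncoding RNA that overlaps the 3′ end on the same strand and also has no row in the table, overlap those of the gene, so that reads there could come from either.

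RELB, the partner of p52, was highest at 7 days and lowest, outside untreated replicate 5, in the knockdown. It had 33.3, 31.6, 31.7, 39.3 and 18.9 CPM in untreated replicates 1 to 5. The 90 minute libraries had 50.5, 38.3, 40.9, 42.2 and 42.6 CPM, and those at 7 days 46.0, 49.9, 51.6, 47.7 and 50.5 CPM. In the knockdown, RELB had 22.4, 21.4, 21.0, 22.6 and 21.7 CPM. The libraries at 7 days were all above the untreated ones, and those of the knockdown were below the first 4 untreated libraries but above replicate 5.

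REL, which is best known from lymphocytes, had the widest spread. It was at 32.0, 42.5, 38.6, 19.7 and 93.8 CPM in untreated replicates 1 to 5, a range in which replicate 4 was the lowest and replicate 5 the highest of all 20 libraries. At 90 minutes it was at 54.3, 68.7, 69.8, 67.1 and 65.5 CPM. At 7 days it was at 41.7, 40.1, 45.8, 43.9 and 45.2 CPM, and in the knockdown at 34.6, 35.0, 34.9, 41.8 and 33.9 CPM. All libraries at 90 minutes were above all those at 7 days and of the knockdown, and above the untreated ones other than replicate 5.

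NFKB1, the gene of p105 and p50, was nearly flat. It had 61.2, 65.1, 62.1, 53.1 and 52.0 CPM in untreated cells and 64.8, 59.3, 63.4, 66.1 and 65.4 CPM at 90 minutes. At 7 days it had 59.9, 59.7, 60.8, 60.3 and 60.2 CPM, with a coefficient of variation of 0.726%, and in the knockdown 58.0, 57.9, 53.2, 53.6 and 52.3 CPM. The libraries at 7 days lay within the range of the untreated ones, and above those of the knockdown.

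NFKB2, the gene of p100 and p52, stepped up with time after IR. It had 104, 105.1, 107, 112 and 93.1 CPM in untreated cells, 130, 113, 119, 117 and 121 CPM at 90 minutes and 143, 151, 152, 159 and 157 CPM at 7 days, so that these 3 groups did not overlap. The knockdown had 114, 112, 116, 107 and 113 CPM and overlapped with the untreated libraries.

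**Figure D2:**
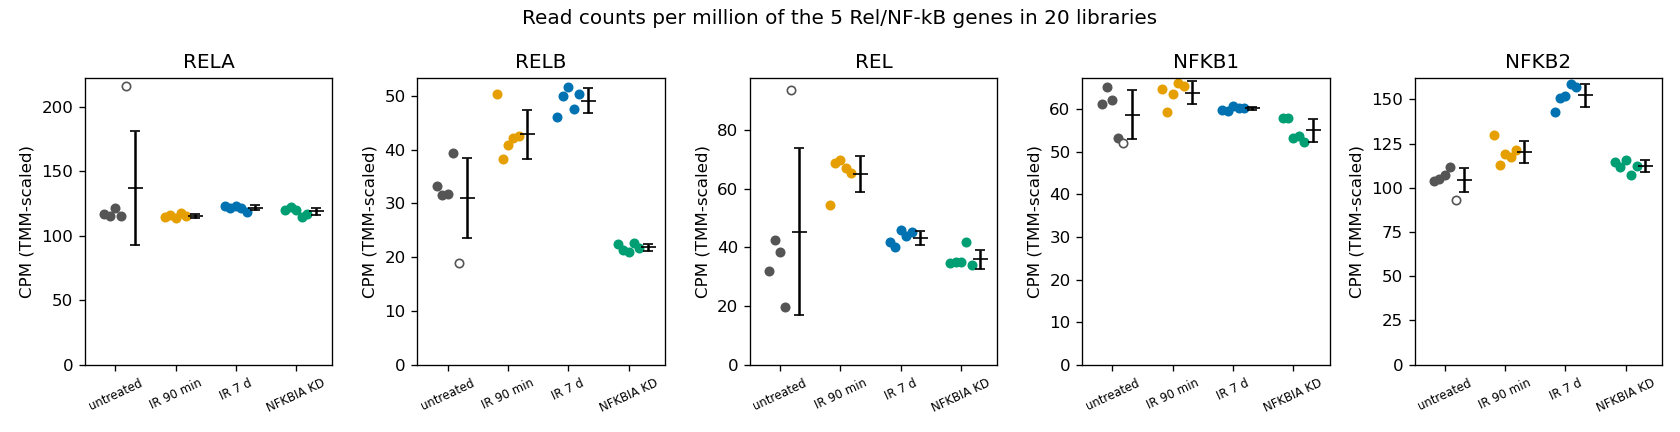
TMM-scaled CPM of each subunit gene in the 20 libraries by group, with the mean ± SD of 5 libraries in black; the open symbol is untreated replicate 5. RELA lies at 114 to 123 CPM in 19 libraries and at 216 CPM in that one, whereas RELB and NFKB2 are highest at 7 days and REL at 90 minutes outside that library.

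To compare the genes with each other, CPM was divided by the length of the union of exons in GENCODE 29. These lengths are 5464 bases for RELA (chromosome 11), 3035 for RELB (chromosome 19), 13170 for REL (chromosome 2), 6257 for NFKB1 (chromosome 4) and 4484 for NFKB2 (chromosome 10). On this scale of CPM per kilobase, NFKB2 and RELA were the most abundant transcripts, at 23.9 ± 0.769 and 21.4 ± 0.511 (SD, n = 4) in untreated cells without replicate 5. RELB followed with 11.2 ± 1.20 and NFKB1 with 9.65 ± 0.818, with RELB above NFKB1 in each of these 4 libraries, although the lowest RELB value (10.42) was close to the highest NFKB1 value (10.40), and REL was the lowest with 2.52 ± 0.759. At 7 days NFKB2 reached 33.9 ± 1.40 (SD, n = 5) and RELB 16.2 ± 0.747, against 22.2 ± 0.367 for RELA. In the knockdown RELB, at 7.20 ± 0.220, was below NFKB1, at 8.79 ± 0.438.

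The order NFKB2, RELA, RELB, NFKB1, REL held in 14 of 20 libraries, and all 5 knockdown libraries had NFKB1 above RELB. Untreated replicate 5 was the exception, with RELA first. The order depends on the length used. With the longest coding sequence of each gene (1653 bases for RELA, 2700 for NFKB2 and 1857 for REL), RELA was first in all 20 libraries and REL was no longer last in 18 of them. Of the summed level of the 5 genes per kilobase of exon, NFKB2 made up 34.7% ± 0.956 in untreated cells without replicate 5 (SD, n = 4), 34.7% ± 0.736 at 90 minutes, 39.8% ± 0.973 at 7 days and 38.2% ± 0.787 in the knockdown (SD, n = 5 each). The share of RELA was 31.2% ± 0.656, 27.4% ± 1.08, 26.1% ± 0.840 and 33.2% ± 0.370 in the same order, and that of RELB 16.3% ± 1.73, 18.3% ± 1.31, 19.0% ± 0.627 and 11.0% ± 0.431. These are shares of transcripts and not of proteins or dimers.

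**Figure D3:**
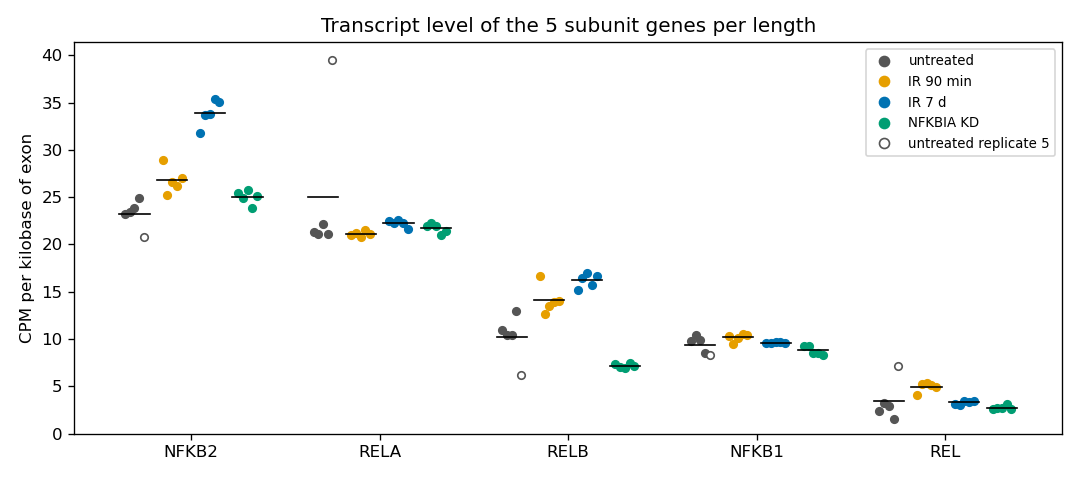
CPM per kilobase of exon of the 5 genes in each library, ordered by level, with the group mean as a black line; the open symbol is untreated replicate 5. NFKB2 rises from 23.9 in untreated cells without replicate 5 to 33.9 at 7 days, while REL is the lowest gene in every group.

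For the early response, the libraries at 90 minutes were compared with the untreated ones. None of the 5 subunit genes was called, with an edgeR adjusted p under 0.05 and a log2 fold change past 0.5 as the criteria, whereas 2.08% of all genes tested were called higher and 1.57% lower. NFKB2 was higher by 0.20 ± 0.05 (log2, SE, edgeR adjusted p = 0.00598), from a mean of 104 ± 6.90 CPM in untreated cells to 120 ± 6.25 CPM (SD, n = 5 each), which stayed under the fold threshold. Its libraries did not overlap (exact permutation p = 0.00794, two-sided, the smallest that 5 against 5 allows), as was the case for 12.3% of all genes. RELB differed by 0.46 ± 0.12 (edgeR adjusted p = 0.00732) and also stayed under the threshold. REL differed by 0.53 ± 0.24 (edgeR adjusted p = 0.124), NFKB1 by 0.12 ± 0.06 (edgeR adjusted p = 0.146) and RELA by −0.24 ± 0.12 (edgeR adjusted p = 0.167).

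Without untreated replicate 5, REL was called higher at 90 minutes, by 0.96 ± 0.13 (edgeR adjusted p = 1.57e-05), from 33.2 ± 9.99 CPM (SD, n = 4) to 65.1 ± 6.22 CPM (SD, n = 5). This is a 1.94-fold difference, and 2.17% of all genes were called higher in this fit. The libraries of REL then did not overlap (exact permutation p = 0.00794, two-sided, the smallest that 5 against 4 allows). The share of all genes without overlap in this setting is not given here. RELB then differed by 0.33 ± 0.07 (edgeR adjusted p = 0.00119) and NFKB2 by 0.16 ± 0.04 (edgeR adjusted p = 0.00696), both still under the fold threshold. NFKB1 differed by 0.07 (edgeR adjusted p = 0.276). The difference of RELA shrank to −0.03, with a 95% interval of −0.09 to 0.04. Within the lane tag that untreated replicate 5 shares with 90 minute replicates 1 to 3, its value was higher for REL (93.8 against 54.3 to 69.8 CPM) and lower for RELB (18.9 against 38.3 to 50.5 CPM). With lane as a factor, in which this library alone ties the untreated group to the others, RELB was called higher (1.19), RELA lower (−0.91), and REL differed by −0.55. RELB was also called without untreated replicate 4 (0.55) or without 90 minute replicate 2 (0.51).

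At 7 days after IR, RELB and NFKB2 rose. NFKB2 was higher than in untreated cells by 0.55 ± 0.05 (edgeR adjusted p = 5.76e-09), at 152 ± 6.26 CPM (SD, n = 5), which is 1.46-fold. RELB was higher by 0.66 ± 0.12 (edgeR adjusted p = 4.86e-05), at 49.1 ± 2.27 CPM against 31.0 ± 7.43 CPM (SD, n = 5 each), which is 1.58-fold. Thus the 2 genes whose products form the non-canonical dimer were called higher and none was called lower, while 16.7% of all genes were called higher and 14.4% lower. The libraries of both genes did not overlap with the untreated ones, as was the case for 44.8% of all genes. Without untreated replicate 5, RELB was called at 0.51 ± 0.07 (edgeR adjusted p = 1.39e-06) and NFKB2 was just under the fold threshold at 0.49 ± 0.04 (edgeR adjusted p = 1.68e-09). In this fit 16.4% of all genes were called higher.

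RELA, REL and NFKB1 were not called at 7 days. RELA differed from untreated cells by −0.17 ± 0.12 and by 0.03 ± 0.03 without replicate 5 (95% interval −0.03 to 0.09). NFKB1 differed by 0.03 (95% interval −0.08 to 0.15) and by −0.03 without replicate 5. REL differed by −0.05 ± 0.24 and, without replicate 5, by 0.36 ± 0.14 (edgeR adjusted p = 0.0227), which is under the fold threshold. The direction of all 3 genes thus depended on that library. That of NFKB1 also changed without untreated replicate 4 (−0.02). With lane as a factor, in which untreated replicate 5 alone ties the untreated group to the others, RELA (−0.84) and REL (−1.24) were called lower.

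Some of the listed markers of cell types were also called at 7 days. The 2 leukocyte markers tested, PTPRC and ITGAM, had a summed level of 7.50 to 8.25 CPM at 7 days and 2.59 to 4.88 CPM in untreated cells, and 1 of the 2 was called higher, or both without untreated replicate 5. CD3E had 0 counts in 16 of 20 libraries. Of the 5 epithelial markers tested, 1 was called higher and 3 lower, with summed levels of 665 to 700 CPM at 7 days against 586 to 1087 CPM in untreated cells. Of the 7 osteoblast lineage markers tested, 2 were called higher and 1 lower at 7 days, and their summed level was 2786 to 3179 CPM against 3985 to 4433 CPM in untreated cells, without overlap. The 1 endothelial marker tested, VWF, did not exceed 2.001 CPM and was not called at either time after IR against untreated cells. At 90 minutes 1 osteoblast lineage marker was called lower, but not without untreated replicate 5, and no marker of the other lists was called. The summed level of the osteoblast lineage markers at 90 minutes was 3660 to 3948 CPM, also without overlap with untreated cells. The part of these markers in the results for RELB and NFKB2 was not tested.

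The 2 times after IR differed most for REL. It was lower at 7 days than at 90 minutes by 0.59 on the log2 scale (−0.59 ± 0.24, edgeR adjusted p = 0.0405), at 43.3 ± 2.396 against 65.1 ± 6.22 CPM (SD, n = 5 each), a 0.666-fold level. It was the 1 subunit gene called lower, with 12.6% of all genes, and none was called higher, with 16.8% of all genes. Its standard error reflects the spread of REL in untreated cells, since all 4 groups share 1 estimate. Without untreated replicate 5 the difference was −0.60 ± 0.12 (edgeR adjusted p = 0.000206). With that library kept, the call was lost when 90 minute replicate 2, 3, 4 or 5 or any 7 day library was left out, with an edgeR adjusted p of at most 0.0685. NFKB2 was higher at 7 days by 0.34 ± 0.05 (edgeR adjusted p = 4.90e-06), under the fold threshold. RELB differed by 0.20 (edgeR adjusted p = 0.151), NFKB1 by −0.08 (edgeR adjusted p = 0.204) and RELA by 0.07 (edgeR adjusted p = 0.622). Without untreated replicate 5, NFKB2 differed by 0.33 (edgeR adjusted p = 2.68e-07) and RELB by 0.18 (edgeR adjusted p = 0.0179, 95% interval 0.05 to 0.32), both under the fold threshold. NFKB1 then differed by −0.10 (edgeR adjusted p = 0.0634) and RELA by 0.06 (edgeR adjusted p = 0.0689). The libraries of RELA, REL and NFKB2 did not overlap between the 2 times, nor did those of 61.8% of all genes. In the lane tag that both times share, REL was at 67.1 and 65.5 CPM at 90 minutes and 41.7 and 40.1 CPM at 7 days, and NFKB2 at 117 and 121 CPM against 143 and 151 CPM. Of the markers, both leukocyte markers, 2 osteoblast lineage markers and 1 epithelial marker were called higher at 7 days than at 90 minutes, while 1 osteoblast lineage and 3 epithelial markers were called lower. Their part in the differences of the subunit genes was not tested.

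In the NFKBIA knockdown, RELB was the subunit gene called lower, close to the fold threshold. It was lower than in untreated cells by 0.51 on the log2 scale (−0.51 ± 0.12, edgeR adjusted p = 0.00182), at 21.8 ± 0.667 CPM (SD, n = 5), a 0.702-fold level. It was 1 of 5 subunit genes called lower, with 7.53% of all genes, and none was called higher, with 5.18% of all genes. No subunit gene had libraries apart from the untreated ones, as had 24.1% of all genes. Without untreated replicate 5 the difference of RELB was −0.65 ± 0.07 (edgeR adjusted p = 2.26e-07), and its libraries then did not overlap. In this fit 6.89% of all genes were called lower, and the share of all genes without overlap is not given here. RELB was under the fold threshold without untreated replicate 1 (−0.48) or 4 (−0.43), or without knockdown replicate 2 (−0.50) or 3 (−0.49). The same was seen with upper-quartile factors (−0.49), library size alone (−0.46) or the replicate block (−0.50). Under upper-quartile factors, library size alone and the replicate block, no subunit gene was called lower. With lane as a factor, in which untreated replicate 5 alone ties the untreated group to the others, RELB differed by 0.22 (edgeR adjusted p = 0.492). REL was called lower without untreated replicate 4 (−0.53, edgeR adjusted p = 0.041) and with lane as a factor (−1.62), as was RELA with lane (−0.85). NFKB2 differed by 0.11 ± 0.05 (edgeR adjusted p = 0.0948), NFKB1 by −0.09 ± 0.06 (edgeR adjusted p = 0.193), RELA by −0.20 ± 0.12 (edgeR adjusted p = 0.192) and REL by −0.32 ± 0.24 (edgeR adjusted p = 0.312). Without replicate 5, RELA differed by 0.00 (95% interval −0.06 to 0.07) and REL by 0.10 (95% interval −0.19 to 0.38). NFKB1 then differed by −0.15 ± 0.05 (edgeR adjusted p = 0.0153), under the fold threshold, and NFKB2 by 0.05 (edgeR adjusted p = 0.325).

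Both leukocyte markers tested were called lower in the knockdown, at summed levels of 1.26 to 2.10 CPM. Of the 7 osteoblast lineage markers tested, 2 were called lower, and their summed level was 2861 to 3016 CPM against 3985 to 4433 CPM in untreated cells. Of the 5 epithelial markers, 2 were called lower, at summed levels of 649 to 715 CPM. VWF was not called with all libraries and was called lower without untreated replicate 5. The part of these markers in the lower level of RELB was not tested.

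The libraries at 7 days were also set against the knockdown, to compare irradiated cells with those in which NFKBIA was lowered without IR. RELB differed the most, being 2.25-fold higher at 7 days (1.17 ± 0.12 on the log2 scale, edgeR adjusted p = 3.44e-08). It was the 1 subunit gene called higher, with 15.8% of all genes, and none was called lower, with 9.89% of all genes. NFKB2 was higher by 0.44 ± 0.05 (edgeR adjusted p = 1.88e-07), under the fold threshold. The libraries of RELB, NFKB1 and NFKB2 did not overlap between these groups, as was the case for 60.7% of all genes. NFKB1 differed by 0.13 ± 0.06 (edgeR adjusted p = 0.0583), REL by 0.27 ± 0.24 (edgeR adjusted p = 0.364) and RELA by 0.03 ± 0.12 (edgeR adjusted p = 0.836). Without untreated replicate 5, RELB differed by 1.17 ± 0.07 (edgeR adjusted p = 2.27e-12) and NFKB2 by 0.43 (edgeR adjusted p = 4.38e-09). NFKB1 then differed by 0.12 (edgeR adjusted p = 0.0229), under the fold threshold, REL by 0.26 (edgeR adjusted p = 0.0729) and RELA by 0.03 (edgeR adjusted p = 0.376). These fits share 1 estimate of the spread with the untreated libraries. In an edgeR fit of the 2 groups alone, REL differed by 0.27 (adjusted p = 4.48e-05) and NFKB1 by 0.13 (adjusted p = 0.00174). RELA differed by 0.03 (adjusted p = 0.295) in that fit, and all of these stayed under the fold threshold. In the lane tag shared by these groups, RELB was at 51.6, 47.7 and 50.5 CPM at 7 days and 22.4 CPM in the knockdown. Of the markers, both leukocyte markers and VWF were called higher at 7 days than in the knockdown, as were 4 of 7 osteoblast lineage and 2 of 5 epithelial markers, while 1 of each of these 2 lists was called lower. Their part in this difference was not tested.

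**Figure D4:**
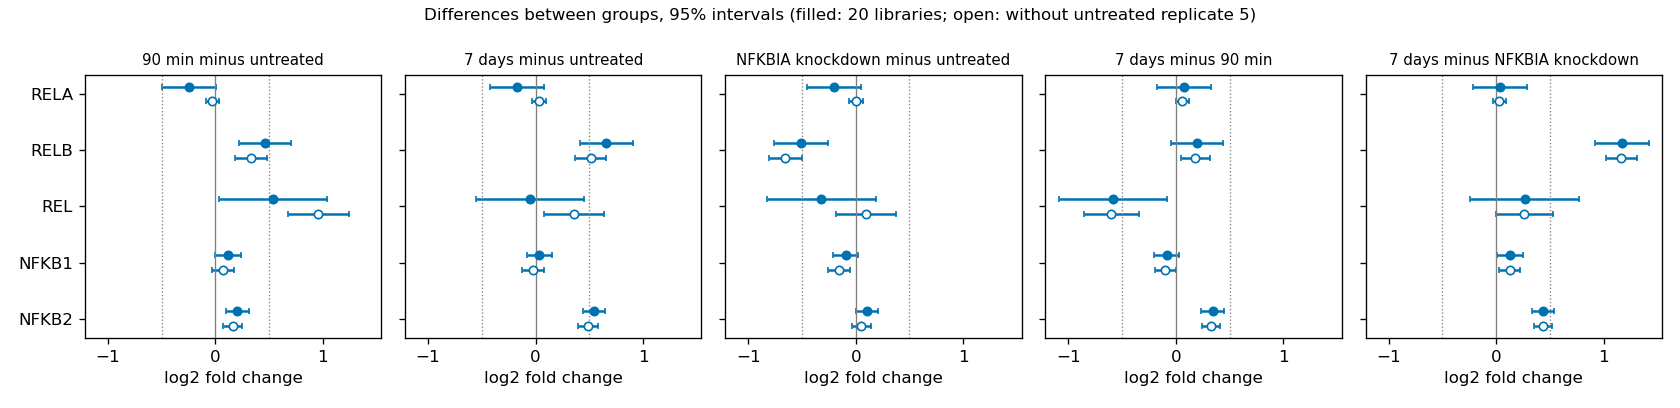
Log2 fold change of each subunit gene in the 5 comparisons, with the 95% interval of the edgeR fit; filled symbols use all 20 libraries, open ones leave out untreated replicate 5, and dotted lines mark the fold threshold of 0.5. RELB at 7 days against the knockdown is at 1.17, whereas REL at 90 minutes moves from 0.53 to 0.96 without that library.

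Ratios between subunit genes within a library describe the same shift without the scaling by library size. The log2 ratio of NFKB2 to NFKB1, the 2 precursor genes, was 0.77, 0.69, 0.79, 1.07 and 0.84 in untreated replicates 1 to 5 and 1.25, 1.34, 1.32, 1.39 and 1.38 at 7 days, so that these groups did not overlap. Its mean was 0.83 ± 0.15 in untreated cells, 0.91 ± 0.06 at 90 minutes, 1.34 ± 0.06 at 7 days and 1.03 ± 0.08 in the knockdown (SD, n = 5 each). Untreated replicate 5 did not stand out in this ratio.

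The log2 ratio of RELB to RELA, the transactivating subunits of the non-canonical and the canonical pathway, was −1.81, −1.87, −1.93, −1.55 and −3.51 in untreated replicates 1 to 5. Its mean was −1.43 ± 0.15 at 90 minutes, −1.31 ± 0.08 at 7 days and −2.44 ± 0.07 in the knockdown, against −1.79 ± 0.17 in untreated cells without replicate 5 (SD, n = 4). The knockdown was thus below the first 4 untreated libraries and the 7 days libraries were above them. The log2 ratio of REL to RELA was −0.83 ± 0.14 at 90 minutes, −1.49 ± 0.09 at 7 days and −1.72 ± 0.15 in the knockdown. In untreated cells it ranged from −2.55 in replicate 4 to −1.20 in replicate 5. All ratios are of CPM, not per length.

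**Figure D5:**
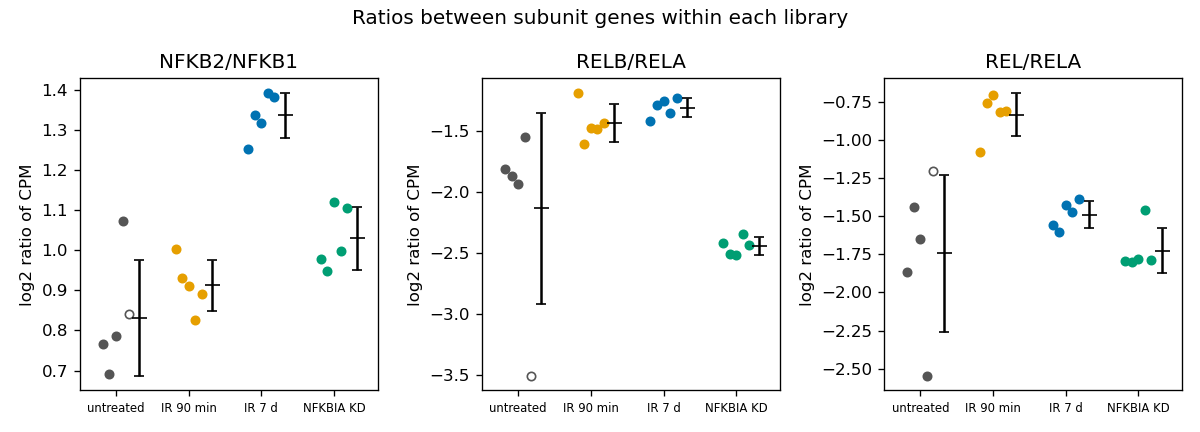
Log2 ratio of CPM of NFKB2 to NFKB1, RELB to RELA and REL to RELA in each library, with the mean ± SD of 5 libraries in black; the open symbol is untreated replicate 5. NFKB2 to NFKB1 is highest at 7 days with a mean of 1.34, RELB to RELA lowest in that untreated library at −3.51, and REL to RELA highest at 90 minutes with a mean of −0.83.

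Among the 5 genes, RELB and NFKB2 varied most alike over the 20 libraries (Pearson's r = 0.75, Spearman's rho = 0.80, and r = 0.70 without untreated replicate 5). RELB and NFKB1 had r = 0.66, and RELA and REL had r = 0.45, which became −0.23 without untreated replicate 5. These correlations are descriptions over libraries that share groups. Of 12902 genes with a mean of at least 1 CPM, those most like RELB were TAF13 (r = 0.96), STX6 (r = 0.96) and COMMD8 (r = 0.95), and those most like NFKB2 were SLC52A1, FDXR and KLHL21 (each r = 0.97). PIP5K1A (r = 0.98), ATXN7 (r = 0.98) and ZNF217 (r = 0.96) were most like REL, and JOSD1 (r = 0.89), NNT (r = 0.86) and CNOT6 (r = 0.85) most like NFKB1. For RELA, CRTC2 and CLPTM1 had r = 0.98, but without untreated replicate 5 the leading gene was CDK5R2 with r = 0.84. STX6 for RELB, ATXN7 for REL, JOSD1 for NFKB1 and KLHL21 for NFKB2 were among the first 3 genes both with and without that library.

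The other genes of the pathway were described by lists. Their counts are to be read against the shares of all genes called in the same comparison, given above. Of the 6 IκB proteins, which bind the subunits, 3 were called higher at 90 minutes (2.08% of all genes) and none lower. NFKBIA was higher by 1.40 ± 0.10 (edgeR adjusted p = 3.61e-09), NFKBIE, which encodes IκBε, by 0.84 ± 0.08 (edgeR adjusted p = 8.27e-08) and NFKBIZ, which encodes the nuclear IκBζ, by 0.53 ± 0.09 (edgeR adjusted p = 0.000285). The median log2 fold change of the list was 0.31, against −0.03 for all genes. At 7 days NFKBIZ was higher by 1.19 ± 0.09 (edgeR adjusted p = 4.11e-10) and NFKBIE by 0.56 ± 0.08 (edgeR adjusted p = 1.76e-06), while NFKBIA differed by −0.02 (edgeR adjusted p = 0.886). Of this list, 1 gene, NFKBIA itself, was called in the knockdown. Against the knockdown, 4 of 6 were higher at 7 days, of which NFKBIZ had the greatest difference (1.52 ± 0.09, edgeR adjusted p = 1.19e-11).

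Of the IκB kinases, CHUK, IKBKB and TBK1 were tested, and IKBKB, which encodes IKKβ, was called higher at 7 days, by 0.65 ± 0.08 (edgeR adjusted p = 7.75e-07). None of the 3 was called at 90 minutes or in the knockdown. IKBKG and IKBKE were not analysed here.

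Of the non-canonical arm, 7 of 9 listed genes were tested. BIRC3, which encodes the ubiquitin ligase cIAP2 and is a known NF-κB target, was higher by 1.497 ± 0.08 at 90 minutes (edgeR adjusted p = 4.04e-11) and by 1.66 ± 0.08 at 7 days (edgeR adjusted p = 3.45e-13). It was lower in the knockdown by 0.72 on the log2 scale (−0.72 ± 0.08, edgeR adjusted p = 8.45e-07). No other gene of this list was called in these 3 comparisons with all libraries. LTBR, a receptor that feeds this arm, was called higher at 7 days without untreated replicate 5 (0.52 ± 0.04, edgeR adjusted p = 9.61e-10). It was higher at 7 days than at 90 minutes by 0.57 ± 0.08 (edgeR adjusted p = 1.58e-06).

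Of the 7 genes for precursor processing and p105 partners, none was called at either time after IR. MAP3K8, a kinase that p105 binds, was called lower in the knockdown (−0.63 ± 0.10, edgeR adjusted p = 5.66e-05).

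Of 15 modifiers of RelA, 2 were called higher and 1 lower at 90 minutes. PPM1D, which encodes the phosphatase WIP1 and is a known p53 target, was higher by 1.37 ± 0.06 (edgeR adjusted p = 4.16e-13) and SIRT1, a deacetylase, by 0.59 ± 0.05 (edgeR adjusted p = 5.74e-08). SOCS1 was lower (−0.56 ± 0.16, edgeR adjusted p = 0.0145). Its level was low, with means of 3.05 CPM in untreated cells, 2.05 CPM at 90 minutes and 0.565 CPM at 7 days. Against the 16.7% of all genes called higher and 14.4% called lower at 7 days, 1 of the 15 was called higher, PPM1D (0.70 ± 0.06, edgeR adjusted p = 1.22e-09), and 5 lower, led by SOCS1 (−2.41 ± 0.19, edgeR adjusted p = 6.40e-10) and PDLIM2, a nuclear ubiquitin ligase for RelA (−0.85 ± 0.08, edgeR adjusted p = 7.34e-09). Of these 5, 3 were not called without untreated replicate 5, among them CREBBP (−0.76 ± 0.22, edgeR adjusted p = 0.00435), which left 2. In the knockdown 2 were called lower, PRKACA (−0.77 ± 0.18, edgeR adjusted p = 0.00198) and PDLIM2 (−0.67 ± 0.08, edgeR adjusted p = 1.06e-06), and 1 without that library, PDLIM2.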

How the data were processed

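Single-read mRNA-seq (Illumina) gave 20 U2-OS libraries, 5 per group. The authors deposited 1 table of raw read counts per gene, without normalization, together with a gene width. Per the labels, reads were trimmed with Trimmomatic and aligned with STAR 2.4.2a to hg19, with bcl2fastq also named; the counter, the annotation and the setting for strand are not given in the sources used here, so that reads of overlapping genes can be shared. Totals were 22535659 to 40390961 counts per library, and each subunit gene had at least 398 counts in every library, which leaves the spread between libraries as the main error.

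Counts were analysed with edgeR 4.0.16 in R 4.3.3: filterByExpr with a minimum count of 10, TMM, and 1 quasi-likelihood fit to all 4 groups with no covariate, p values being adjusted by Benjamini-Hochberg over 14992 genes. A gene was called with a log2 fold change past 0.5 and an adjusted p under 0.05. Standard errors were computed from the F statistic. Single values were also compared by an exact two-sided permutation test of log2 CPM (prior count 2), unadjusted. The share of genes called over all genes is the background for each count. The fit was tested on simulated data.

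The subunits and the pathway and marker lists, taken from general knowledge, were chosen with earlier results of these data known. 1 item of the lists is not reported here. From a list, up to 4 called genes with the greatest log2 fold change were named. Likeness was Pearson's r of log2 CPM, with the first 3 genes named. Lengths and overlaps came from GENCODE 29 (GRCh38), used for no coordinates. Of the table's genes, 19498 had an identifier in it. Promoter sequences came from RefSeq. Alternatives were other normalization (RLE, upper-quartile, library size), DESeq2 1.42.0, other filters and thresholds, the 2 groups alone, replicate number or lane as a factor, and each library left out. The table's width as length and the effect of untreated replicate 5 on comparisons without untreated cells, likeness and lists were added after seeing the data. Figures were drawn with matplotlib 3.10.9.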

Additional observations from a re-analysis of the deposited data

Results flagged for a closer look

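RELA in untreated replicate 5, at 216 CPM, lay far from the other 4 untreated libraries (115 to 121 CPM), with a gap of 0.939 of the group's range. This value was known when the genes were chosen, and it is given as a description. REL in 90 minute replicate 1, at 54.3 CPM, was far below the other 4 libraries of its group, and REL in knockdown replicate 4, at 41.8 CPM, was far above its group, with gaps of 0.723 and 0.858 of the range. Chance gives such a value in about 1 of 20 groups, and 20 groups of 5 libraries were looked at for the 5 genes, so that about 1 is to be reckoned with.

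The difference from untreated cells was not the same at both times after IR for 2 genes, as tested by the 7 days minus 90 minutes contrast in edgeR. It was lower at 7 days for REL, by a log2 fold change of −0.59 (adjusted p = 0.0405), and higher for NFKB2, by 0.34 (adjusted p = 4.90e-06). Which genes pass an adjusted p of 0.05 here depends on the libraries in the fit. RELB also passed without untreated replicate 5 (0.18, adjusted p = 0.0179). In an edgeR fit of the 2 groups alone all 5 genes did, with RELA at 0.07 (adjusted p = 0.0249), RELB at 0.19 (adjusted p = 0.00952) and NFKB1 at −0.09 (adjusted p = 0.0158), all 3 under the fold threshold. The share of all genes that pass an adjusted p of 0.05 alone is not given here, so that these counts have no background.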

How the results depend on the processing

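Of 495 alternative values of single subunit genes, 452 kept direction and side of the threshold, 18 lost the call, 12 gained it and 13 reversed; the cause was not tested. The number called lower in the knockdown went from 1 to 0 with upper-quartile factors (RELB −0.49) or library size alone, where REL at 7 days was also 0.0075. Without a filter NFKB1 at 7 days was −0.0027. With lane as a factor, untreated replicate 5 alone ties the untreated group to the others. In that fit, 1 gene was called higher and 1 lower at 90 minutes (REL −0.55), 2 lower at 7 days and 2 lower in the knockdown (RELB 0.22, NFKB1 0.0696). In lane 3 alone the untreated arm is 1 library (replicate 5), so that the values rest on it. There REL differed by −0.55, RELA by −0.92 and RELB by 1.19 at 90 minutes. With no fold threshold, 2 were higher at 90 minutes, 1 at 7 days against 90 minutes and 2 against the knockdown. The shares of all genes called without that threshold are not given here. Past a log2 fold change of 1, 0 were higher at 7 days, 0 lower in the knockdown and 0 lower at 7 days against 90 minutes, as with DESeq2 for the last (REL −0.60, adjusted p = 0.0533). Leaving out each library in turn gave 0 to 1 called higher at 90 minutes, 1 to 2 higher at 7 days, 0 to 1 lower in the knockdown and 0 to 1 lower at 7 days against 90 minutes. In the same fits the log2 fold change at 7 days was −0.253 to 0.0319 for RELA, −0.271 to 0.359 for REL and −0.0263 to 0.0708 for NFKB1, and in the knockdown −0.282 to 0.0028 for RELA and −0.534 to 0.0954 for REL; these reversed without untreated replicate 5, and NFKB1 also without untreated replicate 4 (−0.0249).

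The labels do not say whether same-numbered libraries were paired, and low correlations cannot exclude it. Of 30 pairs, 2 had a correlation of deviations over 0.1, the highest being 0.12, and 0 libraries were closest to their own number in every other group. With a replicate block, 0 genes were called lower in the knockdown (RELB −0.50) and REL at 7 days was 0.0319; it changed no other call. By coding length, 0 libraries had NFKB2 first per kilobase, against 19 by exon union and by table width.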
